A study of Mus musculus with 4 samples.

Results

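The genes described here build and control the mitotic spindle and the kinetochore, followed through forced expression of Twist2 and through muscle differentiation of cultured mouse myoblasts. They were taken from the deposited expression table by name: symbols starting with Cenp, Kif, Aurk, Bub1, Cdca, Ccnb, Ncap, Ska or Spc2, and the single genes Ccna2, Mki67, Top2a, Aspm, Hmmr, Casc5, Cdc20, Plk1, Tpx2, Cdk1, Nuf2, Ndc80, Ttk, Prc1, Nusap1, Ect2, Anln and Birc5. This gave 66 of the 3760 genes in the table. Of these, 61 belong to 8 classes of mitotic genes, called mitotic members below, and 5 are other kinesins (Kif2a, Kif5b, Kif5c, Kif21a and Kif26b) that the Kif prefix also caught. The mouse annotation holds 113 protein-coding genes with such names, and those outside the table were not analysed here.

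The cells were myoblasts that the labels call Twist2-positive, from skeletal muscle of adult C57BL/6 mice, grown on Matrigel in Ham's F10 with 20% fetal bovine serum. Retrovirus carrying GFP alone or Twist2-IRES-GFP, which encodes the basic helix-loop-helix factor Twist2 together with GFP, was applied for 24 h, and the cells then stayed 24 h in growth medium. They were harvested at that point (GFP growth medium, Twist2 growth medium) or after 5 days in high-glucose DMEM with 2% horse serum (GFP differentiation medium, Twist2 differentiation medium). Each of the 4 groups had 1 library of total RNA, so no difference has a replicate check, no test between conditions was possible, and an effect of a library cannot be told apart from that of its condition. The labels do not say what share of cells was infected.

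The libraries held 9235281 to 12362290 reads, and 36.9% to 65.1% of them lay in the listed genes. Twist2 had 15915 and 8335 reads in the Twist2 libraries, as labelled. It had 1 and 0 reads in the GFP libraries, although the labels call the cells Twist2-positive, and a count of 0 there allows up to 0.325 CPM. Of 8 myoblast and satellite cell markers 7 were listed, Myod1 among them at 547 to 1184 CPM (counts per 1000000 reads of the library). None of 5 endothelial, 6 leukocyte and 4 adipocyte markers was in the table, which does not show that they were unexpressed. Of 8 fibroblast markers 4 were listed, and their summed level was 838 and 566 CPM in the GFP libraries (growth, then differentiation medium) and 3103 and 8821 CPM in the Twist2 libraries, nearly all of it Col3a1. Among these 4, Ly6a was at 0 reads in GFP differentiation medium. Of 6 pericyte and smooth muscle markers only Rgs5 and Acta2 were listed, and they went opposite ways in both cell populations. Acta2 was higher after differentiation (361 and 7948 CPM in GFP cells, 113 and 5050 CPM in Twist2 cells). Rgs5 was lower after it (51.7 and 0.108 CPM in GFP cells, 85.1 and 4.69 CPM in Twist2 cells). The part of these marker differences in the results below was not tested.

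As background, cells entering mitosis condense their chromosomes, build a bipolar spindle and attach each chromosome to it through a kinetochore, a protein plate laid on centromeric chromatin. The kinase Cdk1 with cyclins A and B drives entry, a checkpoint holds the cell until every kinetochore is attached, and the anaphase-promoting complex with Cdc20 then ends mitosis. Most of these genes are transcribed late in the cell cycle and are shut off when myoblasts leave the cycle and fuse into myotubes. In bulk RNA such as this, fewer dividing cells and less RNA per cell cannot be told apart.

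Mitotic members fell in both cell populations over the 5 days, and more of their RNA was left in the Twist2 cells. Their summed level was 3769 CPM in GFP growth medium, 217 CPM in GFP differentiation medium, 6041 CPM in Twist2 growth medium and 691 CPM in Twist2 differentiation medium. This order, with Twist2 growth medium highest and GFP differentiation medium lowest, held for 56 of the 61 genes, and Anln, Cenpc1, Cenpj, Kif24 and Ska2 departed from it. It was not counted over all listed genes, so the 56 only describe the members. Some places in it lay within counting error, as in differentiation medium for Kif18a (log2 interval -0.83 to 2.13), Kif20b (-0.63 to 0.87) and Spc24 (-0.22 to 1.05). In GFP cells 58 of 61 mitotic members were at least 2-fold lower after differentiation, against 40.9% of all listed genes, and 1 was at least 2-fold higher, against 32.6%. In Twist2 cells 59 were lower, against 24.5% of listed genes, and 1 was higher, against 26.5%. Median log2 ratios, here and below of CPM + 1, were -4.54 in GFP cells and -3.09 in Twist2 cells, where all listed genes had medians of -0.40 and -0.22. With genes at 0 reads set to a floor of 3 reads, the GFP median of the members was -4.56. The table holds only genes that differed at least 2-fold from GFP growth medium in at least 1 other library and reached 10 CPM in at least 2 libraries, so a gene without a difference of that size was not listed. That level was reached by 61 and 60 mitotic members in GFP and Twist2 growth medium, and by 7 and 22 in their differentiation media. The counts of lower members thus rest on genes that mostly passed the minimum through libraries in which they are high, and add no weight. With a pseudocount of 5 CPM the GFP median was -2.87.

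**Figure D1:**
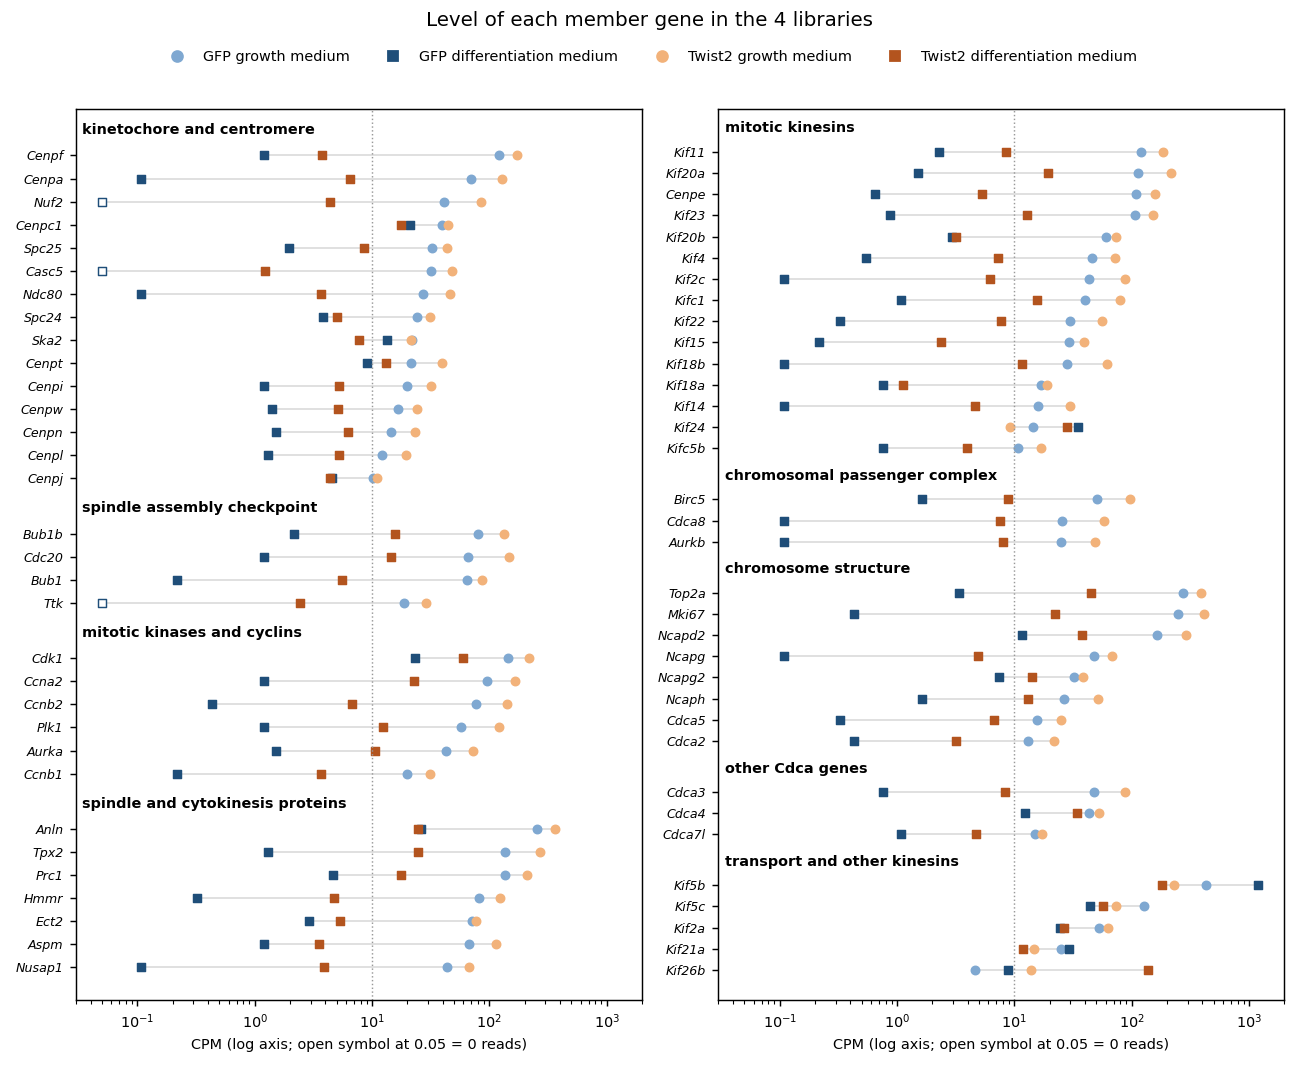
Level of each of the 66 genes in the 4 libraries (1 symbol per library, CPM on a log axis, grouped by role; dotted line at 10 CPM). In nearly every mitotic row the circles of the growth medium libraries lie far to the right of the squares, and the dark blue squares of GFP differentiation medium lie farthest left, with Nuf2, Casc5 and Ttk at 0 reads there.

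The starts of many of these genes hold short sequence elements that are known from genes transcribed in G2 and mitosis. The promoters of 6 genes chosen by name are shown. The cell cycle homology region, CHR, is bound by the DREAM complex, which silences such genes in resting cells. The CCAAT box is bound by NF-Y. RefSeq promoter windows of 300 bases (250 before and 50 after the start, GRCm38.p6) were found for 55 of the 61 mitotic members, 58 windows in all. Either strand of TTTGAA or TTCGAA, the letters searched for CHR, was present in 75.9% of these windows, in 14.8% of the 3905 windows of all listed genes and in 19.2% of all 32851 windows. CCAAT on either strand was present in 72.4%, 38.9% and 37.4% in the same order, and both elements in 62.1%, 6.56% and 7.52%. Matches to the 2 elements can share at most 1 end letter. A match describes the sequence and is not evidence of binding.

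The 150 bases that end just before the RefSeq start are given 5′ to 3′ on the gene's strand, with matches to CHR (TTTGAA) and to CCAAT (or ATTGG, the same element on the other strand) in capitals. Ccnb1 (chr13:100786487-100786636, minus strand) and Ccnb2 (chr9:70421555-70421704, minus) encode the mitotic B cyclins, Cdk1 (chr10:69352913-69353062, minus) their kinase, Plk1 (chr7:122159285-122159434, plus) polo-like kinase, Cdc20 (chr4:118437344-118437493, minus) the activator of the anaphase-promoting complex and Aurka (chr2:172370571-172370720, minus) the spindle pole kinase Aurora A.
Ccnb1: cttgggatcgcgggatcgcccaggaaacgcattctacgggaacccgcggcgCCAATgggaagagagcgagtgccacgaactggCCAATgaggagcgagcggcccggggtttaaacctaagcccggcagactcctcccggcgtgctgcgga
Ccnb2: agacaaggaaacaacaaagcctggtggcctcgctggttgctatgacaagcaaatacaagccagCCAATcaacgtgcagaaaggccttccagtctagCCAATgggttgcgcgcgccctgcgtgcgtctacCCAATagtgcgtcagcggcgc
Cdk1: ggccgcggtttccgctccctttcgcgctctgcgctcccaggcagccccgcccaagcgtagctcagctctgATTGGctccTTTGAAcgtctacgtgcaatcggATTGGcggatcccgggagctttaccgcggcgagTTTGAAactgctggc
Plk1: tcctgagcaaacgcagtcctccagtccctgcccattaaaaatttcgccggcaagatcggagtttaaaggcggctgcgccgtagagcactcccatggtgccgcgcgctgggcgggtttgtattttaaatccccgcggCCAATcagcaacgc
Cdc20: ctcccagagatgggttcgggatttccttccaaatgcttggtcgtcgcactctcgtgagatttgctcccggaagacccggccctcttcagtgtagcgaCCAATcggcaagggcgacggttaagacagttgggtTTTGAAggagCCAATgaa
Aurka: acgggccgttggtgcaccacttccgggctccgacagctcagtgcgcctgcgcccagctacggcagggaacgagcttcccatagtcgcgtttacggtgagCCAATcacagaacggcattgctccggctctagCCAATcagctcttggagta

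Neighbouring CCAAT boxes of the same orientation began 32 bases apart in Ccnb1 and Aurka, 33 and 33 bases apart in Ccnb2, and 32 bases apart for the nearer pair of Cdk1. In Cdc20 they began 45 bases apart, and the farther pair of Cdk1 128 bases apart. A pair 31 to 34 bases apart was in 8 of the 58 windows of mitotic members (13.8%), so most members had none. It was in 1.74% of the windows of all listed genes and 0.895% of all windows. The range takes in the shorter spacings shown, whose windows are among the 8, so the contrast is partly fixed by the choice of range. Pairs of any spacing were also commoner among members. At least 2 CCAAT matches were in 46.6% of their windows, 14.9% of those of all listed genes and 11.7% of all windows. The window of Ccnb1 had no CHR match, and Plk1 and Aurka had none before the start. The CHR matches of Ccnb2, Plk1 and Aurka that lie at or after the start are not in the stretches shown. Nor are a CHR match of Ccnb2 and a CCAAT match of Cdk1 farther upstream. Among the members with a window, Birc5, Cenpj, Cenpt, Kif18a, Ncaph, Nuf2 and Nusap1 had neither element in it. That says only that these letters are not in those windows.

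Kinases and cyclins of mitotic entry all fell in both populations. Cdk1 (GRCm38 chromosome 10, 69335146 to 69352938) stood at 143 CPM in GFP growth, 23.4 in GFP differentiation, 217 in Twist2 growth and 59.7 in Twist2 differentiation medium. It thus kept 16.3% of its growth level in GFP cells (log2 ratio -2.56, counting interval of the ratio -2.83 to -2.41) and 27.5% in Twist2 cells (-1.85, interval -1.98 to -1.74). No pseudocount enters these 95% intervals, which use the read numbers and cover counting error alone. Its partners fell further. Ccna2, cyclin A2, went from 95.2 to 1.19 CPM in GFP cells and from 167 to 22.9 CPM in Twist2 cells, leaving 1.25% and 13.7%. Ccnb1 (chromosome 13, 100778650 to 100786570) went from 19.7 to 0.217 CPM (2 reads, log2 counting interval -9.56 to -4.64) and from 31.3 to 3.64 CPM. Ccnb2 was 76.7 and 0.433 CPM in GFP cells and 142 and 6.79 CPM in Twist2 cells.

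Per kilobase of transcript the order of kinase and cyclins turned over. In GFP growth medium Ccnb2 was highest at 50.1 CPM per kb, above Cdk1 (32.7), Ccna2 (32.1) and Ccnb1 (7.92). After differentiation Cdk1 was highest in GFP cells, at 5.35 CPM per kb against 0.402 for Ccna2, 0.283 for Ccnb2 and 0.0870 for Ccnb1. Twist2 cells showed the same leading kinase, with Cdk1 at 13.6, Ccna2 at 7.72, Ccnb2 at 4.44 and Ccnb1 at 1.46 CPM per kb. The other kinases of this class, Plk1 and Aurka, went from 57 to 1.19 CPM and from 42.8 to 1.52 CPM in GFP cells. In Twist2 cells they went from 121 to 12.3 CPM and from 72.6 to 10.5 CPM.

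The checkpoint class held 4 genes, all at least 2-fold lower in both populations. Ttk, which encodes the checkpoint kinase Mps1, was 18.7 CPM in GFP growth medium, 0 reads in GFP differentiation medium, 28.9 CPM in Twist2 growth medium and 2.43 CPM (30 reads) in Twist2 differentiation medium. Set to a floor of 3 reads, 0.325 CPM there, it was 57.5-fold lower after differentiation of GFP cells. At that floor it was 7.47-fold higher in differentiated Twist2 than GFP cells. The log2 counting intervals of these ratios, which use no floor, ended at -5.53 and began at 2.51. Bub1, the kinetochore kinase that recruits the checkpoint, was 64.7, 0.217 (2 reads, log2 counting interval in GFP cells -11.27 to -6.36), 86.5 and 5.58 CPM in the same order of libraries. Bub1b, the inhibitor BubR1, was 79.6, 2.17, 134 and 15.8 CPM. Cdc20 was 65.4, 1.19, 147 and 14.6 CPM, the highest of the 4 in Twist2 growth medium. All 4 were lowest in GFP differentiation medium and second lowest in Twist2 differentiation medium.

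The chromosomal passenger complex, which corrects faulty attachments, fell in both populations in the 3 subunits that the names catch, and 2 of them were left with 1 read in GFP cells. Aurkb, its kinase, was 25.1 CPM in GFP growth, 0.108 CPM (1 read) in GFP differentiation, 48.7 CPM in Twist2 growth and 8.01 CPM (99 reads) in Twist2 differentiation medium. Cdca8, the subunit borealin, was 25.3, 0.108 (1 read), 57.8 and 7.52 CPM. The log2 counting intervals of their ratios in GFP cells ran from -13.17 to -5.37 and from -13.18 to -5.38, so only the upper bounds carry information on size. Birc5, the subunit survivin, kept 3.21% in GFP cells (50.6 to 1.62 CPM) and 9.08% in Twist2 cells (97.1 to 8.82 CPM). The scaffold subunit Incenp, outside the name rule, kept more, 18.3% in GFP cells (76.3 CPM in growth medium) and 25.9% in Twist2 cells (137 CPM in growth medium).

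Kinetochore and centromere genes were divided. Of 15 genes 13 in GFP cells and 15 in Twist2 cells were at least 2-fold lower, but the share left ranged from 0% to 61.3% in GFP cells. Cenpa, the histone H3 variant that marks centromeres, went from 69.2 to 0.108 CPM (1 read, log2 counting interval -14.63 to -6.84) in GFP cells and from 129 to 6.47 CPM in Twist2 cells. Cenpf, a large outer kinetochore protein, went from 120 to 1.19 CPM and from 172 to 3.72 CPM, and its ratio in Twist2 cells was the lowest of all 66 genes (-5.19, interval -5.98 to -5.11). Casc5, the scaffold of the outer kinetochore now named Knl1, went from 31.8 CPM to 0 reads and from 48.3 to 1.21 CPM (15 reads). Set to the floor of 3 reads, Casc5 was 97.9-fold lower after differentiation of GFP cells, and its log2 counting interval ended at -6.31.

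Within the NDC80 complex, the rod that grips microtubules, the 4 subunits parted after differentiation. In GFP growth medium they lay close together at 12.3 (Ndc80), 17 (Nuf2), 14.2 (Spc24) and 21.0 (Spc25) CPM per kb. In GFP differentiation medium Ndc80 had 1 read (log2 counting interval of its ratio -13.28 to -5.48) and Nuf2 had 0, whereas Spc24 and Spc25 had 35 and 18 reads, or 2.23 and 1.28 CPM per kb. Set to the floor of 3 reads, Nuf2 was 126-fold lower after differentiation of GFP cells, and its log2 counting interval ended at -6.67. Twist2 differentiation medium held all 4 at 1.65, 1.82, 2.96 and 5.62 CPM per kb. Spc24 alone of the 4 kept about the same share in both populations, 15.8% and 16.2%.

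Cenpc1, Cenpt, Ska2 and Cenpj kept the largest shares of the class in GFP cells. Cenpc1, which anchors the kinetochore to centromeric chromatin, was 39.2 CPM in GFP growth, 21.0 in GFP differentiation, 44.3 in Twist2 growth and 17.6 in Twist2 differentiation medium. Cenpt, a second anchor, was 21.7, 8.99, 39.1 and 13.3 CPM. They kept 53.6% and 41.5% in GFP cells and 39.6% and 33.9% in Twist2 cells. Ska2, a subunit of the Ska complex that follows shrinking microtubules, kept the most of this class in GFP cells (22.1 to 13.5 CPM; log2 ratio -0.67, but 0.09 with unlisted genes as the scaling total) and less in Twist2 cells (21.3 to 7.68 CPM). The centromere-bound members Cenpi, Cenpl, Cenpn and Cenpw kept 6.04% to 10.6% in GFP cells and 16.5% to 26.9% in Twist2 cells. Cenpj, whose protein is known for centriole growth, went from 10.3 to 4.55 and from 10.9 to 4.37 CPM.

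Mitotic kinesins, motors that move chromosomes and slide spindle microtubules, were at least 2-fold lower in 14 of 15 cases in each population. Kif11, the motor Eg5 that pushes the poles apart, was 121, 2.27, 184 and 8.49 CPM in GFP growth, GFP differentiation, Twist2 growth and Twist2 differentiation medium. Kif20a, which works in cytokinesis, was 113, 1.52, 217 and 19.5 CPM. Cenpe, which carries chromosomes to the spindle equator, was 109, 0.650, 156 and 5.26 CPM. Kif18b, a regulator of astral microtubules, had 1 read in GFP differentiation medium and 144 reads (11.6 CPM) in Twist2 differentiation medium, from 28.3 and 61.1 CPM in growth medium. It kept 19.1% in Twist2 cells, and its Twist2 to GFP ratio in differentiation medium had a log2 counting interval of 4.25 to 12.06.

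The motors Kif2c, Kif4, Kif14, Kif15, Kif22 and Kif23 kept 0.251% to 1.19% in GFP cells and 5.98% to 15.4% in Twist2 cells. Kif24 was the exception. Its product is known for the control of centrioles and primary cilia, and it was higher after differentiation in both populations: 14.3 to 35.0 CPM in GFP cells (log2 ratio 1.24) and 9.22 to 27.8 CPM in Twist2 cells (1.5). Kif18a and Kif20b differed from the other motors in another way. They kept similar shares in both populations, 4.48% and 4.84% in GFP cells and 5.97% and 4.33% in Twist2 cells. Kifc1, a minus-end motor, and Kifc5b are near-identical genes, and how the authors' counting divided reads between them is not given, so their levels (39.6 and 10.8 CPM in GFP growth medium) are uncertain.

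Spindle and cytokinesis proteins fell in all 7 cases in each population. Tpx2, which activates Aurora A on the spindle, was 137, 1.30, 270 and 24.5 CPM in the order used above. Prc1, which bundles the central spindle, was 136, 4.66, 207 and 17.6 CPM. Hmmr, a spindle assembly protein, was 82.1, 0.325 (3 reads, log2 counting interval in GFP cells -10.26 to -6.43), 123 and 4.77 CPM. Anln, the cleavage furrow scaffold anillin, was the most abundant of the class in GFP growth medium and behaved differently, with 255, 26.3, 364 and 24.4 CPM. The remaining members Aspm, Ect2 and Nusap1 kept 0.249% to 4.09% in GFP cells and 3.11% to 7.01% in Twist2 cells. The levels of Anln in the 2 differentiation medium libraries could not be told apart within counting error (log2 interval of the ratio -0.36 to 0.14), and Anln kept 10.3% in GFP and 6.71% in Twist2 cells.

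Among genes of chromosome structure, Mki67 (chromosome 7, 135689784 to 135716361) encodes the proliferation marker Ki-67, a coat of mitotic chromosomes. Mki67 had the lowest CPM + 1 ratio of any member in GFP cells. It was 248 CPM in GFP growth, 0.433 CPM (4 reads) in GFP differentiation, 411 CPM in Twist2 growth and 22 CPM (272 reads) in Twist2 differentiation medium. The log2 ratios were -7.44 (counting interval -11.04 to -7.80) and -4.16 (-4.40 to -4.05). Without the pseudocount Mki67 was -9.16 in GFP cells. Cenpa, left with 1 read, was then lower at -9.32, and Nuf2, Casc5 and Ttk had 0 reads. Top2a, the topoisomerase that untangles sister chromatids, was 276, 3.36, 386 and 44.6 CPM, leaving 1.22% and 11.5%. Condensin I, which compacts chromosomes, was again uneven: Ncapd2 kept 7.03% and 13.1% and Ncaph 6.11% and 25.4%, while Ncapg kept 0.229% (1 read left, log2 counting interval -14.08 to -6.29) and 7.09%. Ncapg2, of condensin II, kept most in the class, 23.0% and 36.4%. Cdca5, the cohesion factor sororin, and Cdca2, a phosphatase subunit of mitotic exit, kept 2.07% and 3.30% in GFP cells and 27.1% and 14.5% in Twist2 cells. Among the other Cdca genes, Cdca4, a regulator of E2F activity, was the single mitotic member less than 2-fold lower in Twist2 cells (52.2 to 34.1 CPM, log2 ratio -0.60). Cdca3 and Cdca7l kept 1.58% and 7.28% in GFP cells and 9.53% and 27.5% in Twist2 cells.

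The 2 differentiation responses were compared gene by gene, a comparison of 2 pairs of libraries with none in common. Twist2 cells kept a larger share of the growth medium level for 55 of 61 mitotic members, against 57.0% of listed genes. The median share left was 1.89% in GFP cells (quartiles 0.598% and 7.03%) and 11.5% in Twist2 cells (quartiles 6.71% and 19.6%). With the reads of unlisted genes as the scaling total, these medians were 3.28% and 13.8%. The exceptions were Anln, Cenpc1, Cenpj, Cenpt, Kif20b and Ska2. The difference of the log2 ratios, Twist2 minus GFP, had a median of 1.29 over the mitotic members and 0.19 over all listed genes. It was at least 1 for 37 mitotic members, against 25.5% of listed genes, and -1 or less for 0, against 12.6%. On this CPM + 1 scale Mki67 (3.28), Top2a (2.90) and Ccna2 (2.64) had the largest differences. Without the pseudocount the order changed. Kif18b (-8.03 in GFP and -2.39 in Twist2 cells) and Aurkb (-7.86 and -2.60) then differed by more than Mki67 (-9.16 and -4.22). Both were left with 1 read in GFP differentiation medium. With a pseudocount of 5 CPM, above the level of most members in GFP differentiation medium, the median difference was 0.30.

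**Figure D2:**
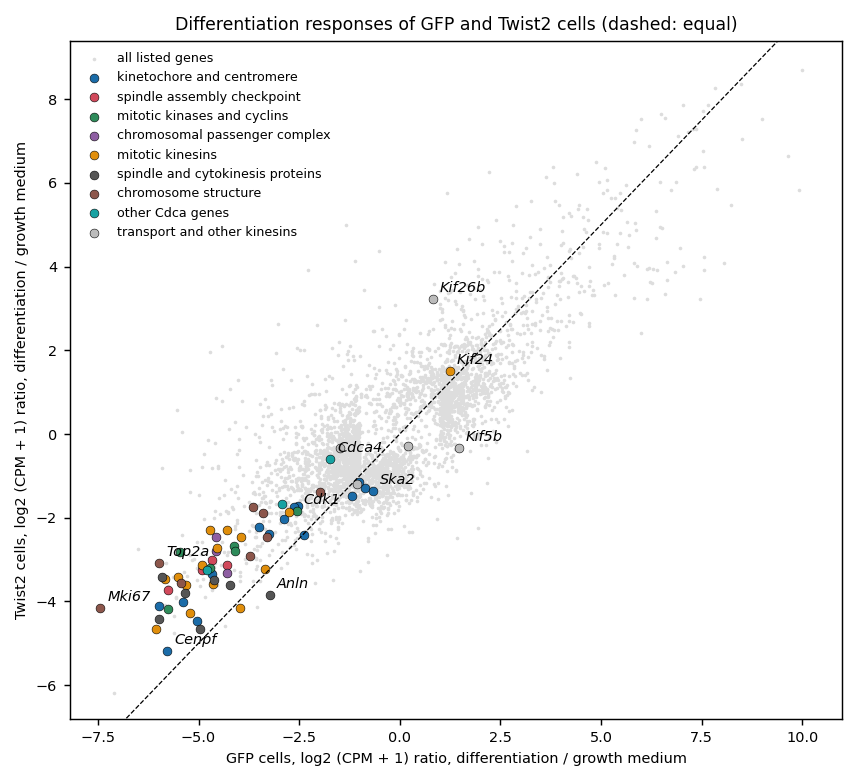
Log2 (CPM + 1) ratio of differentiation to growth medium in GFP cells (horizontal) and Twist2 cells (vertical), 1 point per gene, members coloured by role and all 3760 listed genes in grey. Most mitotic members sit at the lower left and above the dashed line of equal response, while Anln and Ska2 lie below it and Kif24 and Kif26b on the higher side of both axes.

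By role, and among the genes that the names catch, the passenger complex had the lowest median share left in GFP cells (0.431%, but 1.82% with Incenp, which is above 4 of the classes that come next), followed by the checkpoint (1.08%), mitotic kinesins (1.19%), kinases and cyclins (1.67%), spindle and cytokinesis proteins (1.77%), chromosome structure (2.68%), other Cdca genes (7.28%) and kinetochore and centromere genes (8.52%). In Twist2 cells the order was different, from spindle and cytokinesis proteins (6.71%) and kinesins (8.96%) to kinetochore and centromere genes (19.6%) and other Cdca genes (27.5%), with the passenger complex at 13.0% (14.7% with Incenp). Classes of 3 to 7 genes and single reads in GFP differentiation medium limit these orders, and neighbouring classes overlap in the plot of shares left. Across the 61 members the responses of the 2 populations were related (Pearson r 0.86, Spearman rho 0.82, as a description over genes, which share libraries and are not replicates; 0.81 and 0.73 over all listed genes).

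**Figure D3:**
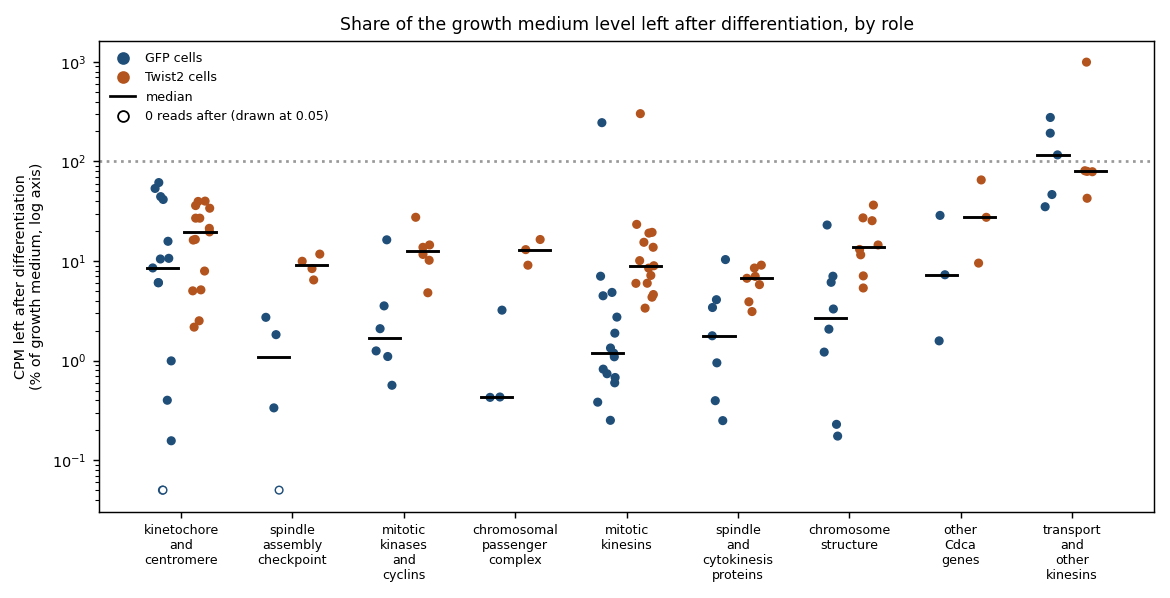
CPM left after differentiation as a percentage of the growth medium level (log axis) for each member, by role, in GFP cells (dark blue) and Twist2 cells (brown); black lines are medians over genes and open circles had 0 reads. In each of the 8 mitotic classes the Twist2 median lies above the GFP median, from 6.71% against 1.77% for spindle and cytokinesis proteins to 27.5% against 7.28% for the other Cdca genes.

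In growth medium, Twist2 cells had somewhat more RNA of these genes than GFP cells. Of the 61 mitotic members 59 had a ratio above 0, against 42.8% of listed genes, with a median log2 ratio of 0.63 (1.55-fold) where listed genes had -0.10. Differences were small: 5 members were at least 2-fold higher, against 5.21% of listed genes, and 0 were lower, against 10.6%. These 5 of 61 are near that background, and the shift lies in the many small positive ratios. A counting interval above equality was found for 54 members, against 29.1%, and below equality for 1, Kif24, against 43.0%; this compares the reads of 2 libraries and not the conditions. The 5 were Cdc20 (65.4 and 147 CPM, 1.16), Cdca8 (1.16), Kif18b (1.08), Plk1 (1.07) and Nuf2 (1.04). Kif24 (-0.58) and Ska2 (-0.05, but 0.18 with median-of-ratios size factors) had the negative ratios. The count of 5 became 21 with median-of-ratios size factors and 3 with a pseudocount of 5 CPM.

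In differentiation medium the gap between Twist2 and GFP cells was wider. Over all 61 mitotic members the median log2 ratio was 1.92 (3.79-fold), where listed genes had -0.06, and the summed level was 3.18-fold higher. With genes at 0 reads set to the floor of 3 reads the median was 1.93. Without a minimum level 50 were at least 2-fold higher, against 26.6% of listed genes, and 0 were lower, against 23.1%. A counting interval above equality held for 53, against 44.3%, and below equality for 2, Kif24 and Ska2, against 47.0%. Only 23 members reached 10 CPM in the higher of the 2 libraries, mostly through Twist2 differentiation medium itself, and 17 of these were at least 2-fold higher, against 25.4%, and 0 lower, against 25.2%; since most passed through the library in which they are high, that count adds no weight. At least 10 CPM was reached by 7 mitotic members in GFP and by 22 in Twist2 differentiation medium. On the CPM + 1 scale Mki67 had the largest ratio (0.433 against 22 CPM, 4.0), followed by Kif18b (3.51), Tpx2 (3.47) and Ccna2 (3.45). Without the pseudocount Mki67 was 5.67 (counting interval 4.29 to 7.55). Kif18b (6.75), Aurkb (6.21), Cdca8 (6.12), Cenpa (5.90) and Kif2c (5.85) were then above it, each with 1 read in GFP differentiation medium. The median was 0.91 with a pseudocount of 5 CPM.

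**Figure D4:**
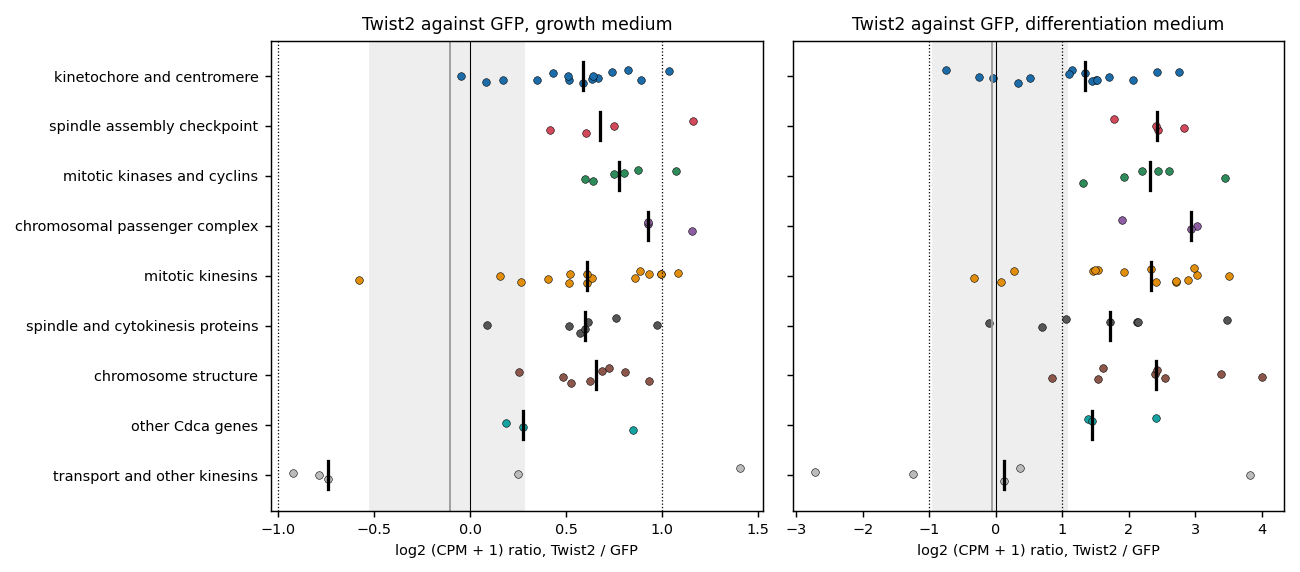
Log2 (CPM + 1) ratio of Twist2 to GFP cells in growth medium (left) and differentiation medium (right) for each member by role; black bars are medians over genes, the grey band spans the quartiles of all 3760 listed genes with their median as a grey line, and dotted lines mark 2-fold. Class medians of the mitotic genes lie between 0.27 and 0.93 on the left and between 1.34 and 2.94 on the right.

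Marker values also differed between differentiated GFP and Twist2 cells, in both directions. The satellite cell factor Pax7 stood at 4.01 CPM in differentiated GFP cells and at 34.6 CPM in differentiated Twist2 cells, and the fibroblast marker Col3a1 at 559 and 8750 CPM. Of the other listed fibroblast markers, Dcn was 1.19 and 64.6 CPM, Ly6a 0 reads and 3.32 CPM, and Col1a2 lower in the Twist2 library (5.74 and 3.15 CPM). Myog, a factor of muscle differentiation, was 1075 and 378 CPM. The other listed myoblast and satellite cell markers were mixed. Des (6503 and 2935 CPM) and Itga7 (4966 and 3042 CPM) were lower in the Twist2 library. Myod1 (810 and 1068 CPM) and Vcam1 (17.97 and 48.9 CPM) were higher there, and Cdh15 was close (806 and 800 CPM). With Pax7 and Myog, the summed level of the 7 was 14182 and 8307 CPM. The part of these markers in the residual mitotic RNA was not tested.

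Transcript length also moved with the ratios. The 6 mitotic members among the longest 1 in 5 of listed transcripts (6119 bases or more: Aspm, Casc5, Cenpe, Cenpf, Kif14 and Mki67) had a median log2 ratio of -4.57 in Twist2 differentiation, and the 13 among the shortest 1 in 5 (up to 2138 bases) had -2.68. In GFP cells these medians were -5.41 and -4.54. For all listed genes the same medians were -0.45 (longest) and 0.38 (shortest) in Twist2 cells and -0.18 and -0.26 in GFP cells. Across the 61 members Spearman's rho with length was -0.28 in Twist2 and -0.13 in GFP cells (Pearson r with log2 length -0.26 and -0.13, a description over genes of the same libraries). For the ratio of Twist2 to GFP cells rho was -0.39 in growth and -0.28 in differentiation medium (Pearson r -0.30 and -0.18). Members below the median transcript length of the class, a subset chosen after seeing the data, had medians of -2.57 and -4.29, and the part of length in the result was not tested further.

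**Figure D5:**
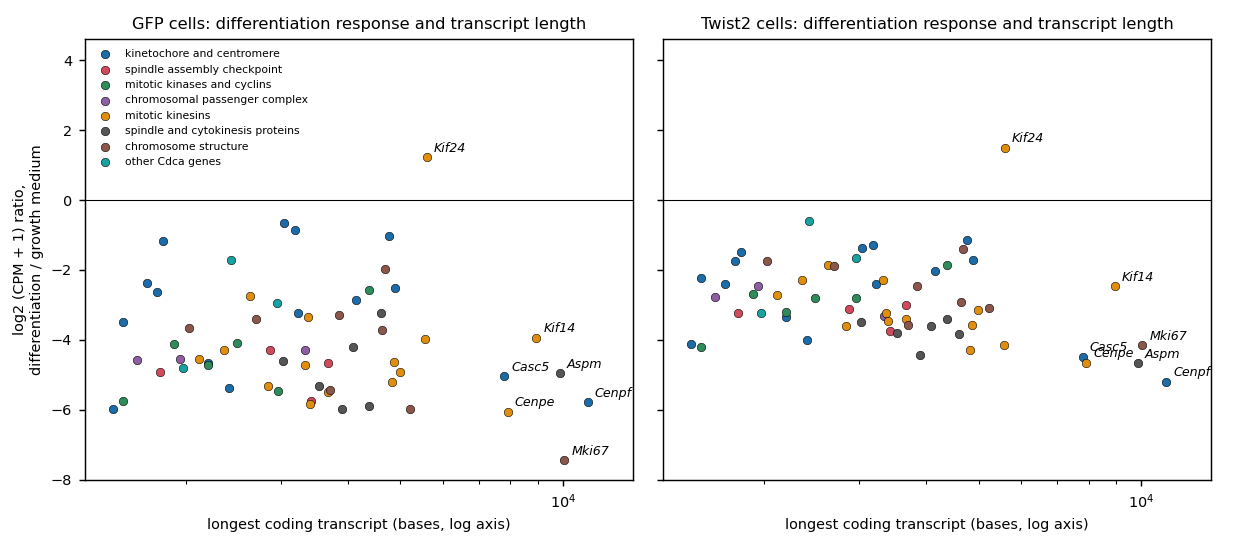
Differentiation response (log2 (CPM + 1) ratio) of the 61 mitotic members against the length of their longest coding transcript (log axis) in GFP cells (left) and Twist2 cells (right), coloured by role. In Twist2 cells the longest transcripts, such as Cenpf at -5.19, tend to the bottom, with Kif14 at -2.46 above them.

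Of 75 further mitosis genes outside the name rule, 52 were in the table, and most of them were lower after differentiation. In GFP cells 49 of the 52 were at least 2-fold lower, against 40.9% of listed genes, and 1 was higher, against 32.6% (median -3.42). In Twist2 cells 49 were lower, against 24.5%, and 0 higher, against 26.5% (median -2.29). All 52 reached 10 CPM in both growth medium libraries, but 10 and 25 did in GFP and Twist2 differentiation medium. The limit given for the members' counts of lower genes holds here too. In differentiation medium 37 were at least 2-fold higher in Twist2 than GFP cells without a minimum level, against 26.6%, and 0 lower, against 23.1% (median 1.70). Foxm1, the transcription factor of the late cell cycle programme, was 57.8, 4.55, 109 and 24.9 CPM in GFP growth, GFP differentiation, Twist2 growth and Twist2 differentiation medium. Mad2l1, the checkpoint protein Mad2, was 45.9, 3.57, 58.0 and 11.2 CPM. Tuba1b, an alpha tubulin used by all cells, was the single gene at least 2-fold higher in GFP cells (292 to 695 CPM). Iqgap3, a Ras effector, kept 61.4% in GFP and 20.8% in Twist2 cells, against the direction of the list.

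The 5 other kinesins differed among themselves. Kif5b, the main conventional kinesin that carries cargo along microtubules, was 431 CPM in GFP growth, 1193 in GFP differentiation, 227 in Twist2 growth and 181 in Twist2 differentiation medium. It was highest in differentiated GFP cells and lowest in differentiated Twist2 cells, with a log2 ratio between them of -2.72 (interval -2.79 to -2.66). Kif26b, a kinesin without motor activity that acts in adhesion signalling, was 4.62, 8.88, 13.9 and 138 CPM. Its ratio in Twist2 differentiation (3.22) was the highest of the 66 genes. Its Twist2 to GFP ratio in differentiation medium was second to that of Mki67 on the CPM + 1 scale (3.82). Without the pseudocount it was 3.96, below several mitotic members such as Kif18b (6.75). Kif5c, a relative of Kif5b, was 126, 44.3, 72.7 and 57.4 CPM. Kif2a, a microtubule depolymerase that also works at spindle poles, was 52.1, 24.3, 62.2 and 26.5 CPM. It was at least 2-fold lower in both populations (-1.07 and -1.20), in the order of libraries seen for most mitotic members, and Kif5c was at least 2-fold lower in GFP cells (-1.49). Kif21a, a regulator of microtubule growth, was 24.9, 29.0, 14.5 and 11.7 CPM.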

How the data were processed

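RNA of 4 cultures, 1 library each, was measured by sequencing. The authors deposited CPM values per gene, that is counts per 1000000 reads of the library, and log2 ratios of the other 3 libraries to GFP growth medium, per the file headers. The deposited log2 ratios equalled those recomputed here with a pseudocount of 1 CPM. DESeq2 1.6.3, TopHat2 2.0.0 and the build GRCm38 (mm10) appear, with no role stated, in the submitters' processing notes. Not given in the sources used here were the read counter, the annotation and the use of strand. Every deposited gene had at least 1 deposited ratio of 2-fold or more and at least 10 CPM in at least 2 libraries, which was checked on the file.

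Whole reads were recovered from the CPM steps: 100% of values lay within 0.001 of a whole number. Log2 ratios of CPM + 1 were computed for 4 comparisons over all 3760 genes, and a member counted as higher or lower at 2-fold if its higher library reached 10 CPM. Exact binomial (Clopper-Pearson) 95% intervals of read ratios cover counting error only; reads are not independent molecules. Genes at 0 reads were set against a floor of 3 reads per library. With 1 library per group no test was run. Data for 3760 genes were simulated with counting error alone, and changes were placed only in genes averaging at least 10 CPM. Of 3-fold changes 99% to 100% were called in each of the 4 comparisons, and 0% of unchanged genes. No variation between libraries or cultures was simulated, so the 0% is not a rate of false calls for these libraries.

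Genes were matched to GENCODE M21 (all 66 members; 13 of the 3760 unmatched), with Casc5 matched as Knl1, and levels per kilobase use the longest coding transcript. Promoters came from RefSeq. Named genes were the 3 highest and 3 lowest ratios per comparison, the 2 most abundant members per class, members 2-fold or more from their class median, members at 0 reads, and 10 genes chosen by name; further members were named to describe complexes. The members and all lists were chosen with earlier results of these data known. Alternatives were other pseudocounts, scalings, thresholds and filters. Python 3.11.15, pandas 2.3.3 and scipy 1.17.1 were used.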

Additional observations from a re-analysis of the deposited data

Results flagged for a closer look

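Both genes with opposite differentiation responses in the 2 cell populations were kinesins outside the mitotic classes, and with 1 library per group the difference was not tested. Kif5b had a log2 ratio of 1.47 in GFP cells and -0.33 in Twist2 cells, with counting intervals of 1.42 to 1.52 and -0.41 to -0.25. Kif21a had 0.21 and -0.29, and both of its intervals (-0.04 to 0.48 and -0.64 to 0.02) include 0.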

How the results depend on the processing

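No paired analysis was possible because each group had 1 library, and for the same reason no replicate could be left out. Of 536 alternative values of named members and sums 291 lay within the counting interval and 4 changed sign, none of them from a ratio of 2-fold or more. The intervals of ratios use no pseudocount, so some main values lie outside their own. Mki67 in GFP differentiation is a case (-7.44 against -11.04 to -7.80). The 291 are therefore not a measure of stability. Ska2 turned to 0.09 in GFP differentiation (scaled to reads outside the table) and to 0.18 in growth medium (size factors). In differentiation medium, scaled to reads outside the table, Kif2a turned to -0.45 and Kif5c to -0.22. Over all 66 genes Cenpt (-0.03), Kif18a (-0.01), Kif20b (-0.38) and Spc24 (-0.16) turned there too, so that 52 rather than 56 mitotic members had positive ratios. With a pseudocount of 5 CPM the medians were -2.87 (GFP differentiation), -2.59 (Twist2 differentiation), 0.91 (Twist2 to GFP, differentiation medium) and 0.30 (difference of the responses), and 3 members were higher in growth medium. With median-of-ratios size factors the medians were -4.28 (GFP differentiation) and 1.93 (differentiation medium), and 21 members were higher in growth medium. Scaled to reads outside the table, the medians were -4.03, -2.83 and 1.75, and 1 member was lower in differentiation medium. These scalings moved the median of all genes by 0.34 and 0.78 in GFP differentiation, 0.04 and 0.25 in Twist2 differentiation, 0.23 and -0.05 in growth medium and -0.06 and -0.57 in differentiation medium; relative to all genes the members' medians were -4.13 to -4.40, -2.86, 0.73 to 0.74 and 1.98 to 2.38. Among all listed genes, those higher and lower in GFP differentiation numbered 1205 and 1511, and 1325 and 968 with size factors or 1490 and 646 with the other scaling. The corresponding pairs were 984 and 911, then 1216 and 604 with the other scaling in Twist2 differentiation; 183 and 372, then 272 and 241 with size factors in growth medium; and 873 and 867, then 497 and 1548 with the other scaling in differentiation medium. At 4-fold 0 members were higher in either differentiation or in growth medium. By counting interval alone 54 were higher and 1 lower in growth medium, and 53 and 2 in differentiation medium. Without the minimum level 50 were higher in differentiation medium. With all 66 genes the medians were -4.29, -2.86 and 1.84, 2 were higher in each differentiation and 2 lower in differentiation medium. Of alternatives chosen after seeing the data, leaving out Kif24 and Cenpj gave medians of -4.56 and 1.93 (GFP differentiation, differentiation medium) and 0 higher in either differentiation. The 30 members with short transcripts gave medians of -4.29 and -2.57, with 28 and 29 lower and 0 higher in the 2 differentiations. In differentiation medium 9 of the 12 that reached 10 CPM were higher, against 25.4% of listed genes. Without the minimum level 26 of the 30 were higher there, against 26.6%. The causes of these shifts were not tested, beyond the smaller number of genes. Depth limited GFP differentiation medium, where 3 mitotic members had 0 reads and 15 had 1 to 3.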

Other observations

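Genes of DNA replication and the G1/S transition kept more of their RNA than the mitotic members. Of 40 such genes 29 were in the table, and their median share left was 14% in GFP cells and 51.1% in Twist2 cells. In GFP cells 25 of the 27 that reached 10 CPM were at least 2-fold lower and 2 higher (40.9% and 32.6% of listed genes), and the median log2 ratio of the 29 was -2.37. In Twist2 cells 12 of 29 were lower and 2 higher (24.5% and 26.5% of listed genes), with a median of -0.88. In GFP cells 27 reached 10 CPM in growth and 6 in differentiation medium, and in Twist2 cells 28 and 22. Counts of lower genes thus rest largely on genes that passed the minimum in growth medium. Pcna, the replication clamp, was 34.5 CPM in GFP growth, 15.1 in GFP differentiation, 42.7 in Twist2 growth and 40.1 in Twist2 differentiation medium. Mcm3, a subunit of the replicative helicase, was 34.1, 5.96, 41.6 and 38.7 CPM. Rrm2, the ribonucleotide reductase subunit, differed less between the populations, with 348, 77.6, 306 and 87.7 CPM. E2f2 and E2f8, members of the E2F family, were the 2 genes higher after differentiation in both populations, E2f2 with 14.5 and 43.0 CPM in GFP cells and 1.90 and 29.7 CPM in Twist2 cells. These genes were named after their values were seen, and the difference between the lists was not tested.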
